A study of Drosophila melanogaster with 2 samples.

Results

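Oc-GFP ChIP-seq peaks that recurred in both replicates but lay below the reproducibility limit of the study numbered 7182, out of 30000 peaks in the list called on the pooled libraries. Oc is the homeodomain transcription factor encoded by ocelliless (oc, also called orthodenticle). A peak was taken when it was absent from the IDR list and its summit lay over 1000 bp from any summit of that list. The summit also had to lie over 500 bp from any annotated transcription start site and to have a summit within 100 bp of it in each replicate's list. These peaks are called reproducible distal peaks here, and they made up 23.9% of the pooled list. The steps left 24156 peaks outside the IDR list, 20103 of them away from IDR summits and 16444 of those away from start sites. Of these 16444 distal peaks below the list, 43.7% had a summit in both replicates. The other 9262 were at hand in replicate 2 alone (4306), in replicate 3 alone (3285) or in neither list (1671). Matched summits reached down to rank 30000 in the list of replicate 2 and 29995 in that of replicate 3. Absence from a list therefore does not mean absence of signal. The 9262 peaks serve as the nearest comparison, together with 3851 distal IDR peaks and 1769 promoter peaks below the list that recurred in both replicates.

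The study held 1 group of 2 libraries, biological replicates 2 and 3, each from whole embryos of Drosophila melanogaster collected at 2 to 14 hours of age. The line is transgenic and stably carries Oc with a C-terminal GFP tag, and the precipitation used an antibody against GFP. Both replicates shared the tagged transgene and 1 control alignment, and the state of the native oc gene is not stated in the labels. In whole embryos, binding in few cells and weak binding in many cells cannot be told apart.

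In ChIP-seq, sheared chromatin is precipitated with the bound protein and its DNA is sequenced, so that bound sites appear as peaks whose summits mark the densest coverage. The irreproducible discovery rate (IDR) ranks peaks in replicate experiments and keeps those whose ranks are reproducible, and peaks below its limit are a mixture of weaker binding and background. Oc belongs to the paired-type homeodomain proteins with a lysine at the position of the recognition helix that sets the preference for the core TAATCC, as in Bicoid. In fly embryos such factors act at enhancers, many of them in introns and between genes, and a gene can have several enhancers with overlapping activity.

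Sequences that carry the core site are shown first, since the core is the feature of these peaks that their choice did not use. Each is the 101 bases centred on the pooled summit, on the plus strand of dm6 (RefSeq assembly release 6), with the core site in capitals, which reads TAATCC on the plus strand or GGATTA where it lies on the minus strand. Of the peaks with the core on 2L, 3L, 3R, 4 and X, the 8 with the highest pooled signal are named by the protein-coding gene whose start site is nearest.
CG6142, chr3R:26132515-26132615: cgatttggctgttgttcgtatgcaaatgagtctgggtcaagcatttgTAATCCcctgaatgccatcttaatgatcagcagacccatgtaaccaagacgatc
eyg, chr3L:12452852-12452952: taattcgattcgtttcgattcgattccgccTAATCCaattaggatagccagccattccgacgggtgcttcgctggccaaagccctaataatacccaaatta
CG43355, chr2L:11475691-11475791: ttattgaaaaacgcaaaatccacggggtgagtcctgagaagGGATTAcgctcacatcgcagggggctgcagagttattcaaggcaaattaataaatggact
Cyp12e1, chr3R:10456612-10456712: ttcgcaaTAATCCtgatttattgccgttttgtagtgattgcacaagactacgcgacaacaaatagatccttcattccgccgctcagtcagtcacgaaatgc
ovo, chrX:5041672-5041772: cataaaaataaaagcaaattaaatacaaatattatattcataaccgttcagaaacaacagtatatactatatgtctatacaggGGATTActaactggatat
CG42237, chrX:13116277-13116377: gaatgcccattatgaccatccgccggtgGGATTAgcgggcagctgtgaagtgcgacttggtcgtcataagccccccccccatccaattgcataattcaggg
cpo, chr3R:17954245-17954345: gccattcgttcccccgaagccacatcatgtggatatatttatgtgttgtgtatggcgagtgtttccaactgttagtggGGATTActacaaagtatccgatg
ase, chrX:457028-457128: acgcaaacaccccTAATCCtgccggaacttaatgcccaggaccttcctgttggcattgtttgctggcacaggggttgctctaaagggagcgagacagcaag
In the peak nearest to CG6142 the core lay over the summit itself, and its pooled signal was 145, with 62.8 in replicate 2 and 79.5 in replicate 3. The peak of eyg, a Pax-family gene of the eye and salivary duct, lay 15119 bp downstream of its start site, with a pooled signal of 145 as well. Its core was centred 17.5 bp to the left of the summit. The peak of ase, a proneural gene of neuroblasts, lay 3669 bp upstream of its start site and had 58.5 in replicate 2 and 78.8 in replicate 3. Its summit was classed as intronic, and this class covers introns of any annotated gene.

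On the same arms, a further 6 peaks with the core were the next by signal at genes of the developmental lists used below.
sr, chr3R:18107258-18107358: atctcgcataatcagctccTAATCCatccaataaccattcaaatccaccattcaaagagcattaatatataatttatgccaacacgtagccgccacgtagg
pnt, chr3R:23297643-23297743: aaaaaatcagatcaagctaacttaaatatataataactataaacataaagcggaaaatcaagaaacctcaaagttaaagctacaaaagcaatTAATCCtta
drm, chr2L:3535473-3535573: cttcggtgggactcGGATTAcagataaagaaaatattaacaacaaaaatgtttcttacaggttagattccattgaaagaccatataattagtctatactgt
vnd, chrX:584326-584426: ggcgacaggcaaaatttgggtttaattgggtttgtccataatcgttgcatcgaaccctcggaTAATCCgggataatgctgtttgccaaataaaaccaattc
vvl, chr3L:6811167-6811267: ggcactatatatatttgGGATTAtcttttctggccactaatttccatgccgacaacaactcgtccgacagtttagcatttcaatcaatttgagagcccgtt
htl, chr3R:18059520-18059620: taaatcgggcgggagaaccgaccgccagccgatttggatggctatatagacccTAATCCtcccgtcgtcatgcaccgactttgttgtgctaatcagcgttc
They lay at sr, which encodes a zinc-finger factor of tendon cells, pnt, an Ets factor downstream of EGFR signalling, and drm, a zinc-finger gene of the gut. The others lay at vnd, a homeobox gene of the ventral neuroectoderm, vvl, a POU-domain gene of trachea and brain, and htl, the FGF receptor gene of the mesoderm. Their pooled signals lay between 112 at htl and 137 at sr. At vvl the replicates stood apart, with 83.7 in replicate 2 and 33.8 in replicate 3, and at drm the order was the other way, with 35.4 in replicate 2 and 65.5 in replicate 3.

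Most of these peaks have no such core, and the 4 strongest without it on the same arms are given for contrast.
slow, chr3L:4389243-4389343: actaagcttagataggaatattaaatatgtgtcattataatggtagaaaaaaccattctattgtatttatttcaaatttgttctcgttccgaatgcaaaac
Dnaaf5, chr3R:14357547-14357647: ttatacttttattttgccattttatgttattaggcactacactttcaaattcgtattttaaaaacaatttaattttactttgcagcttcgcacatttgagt
CG42258, chrX:12470627-12470727: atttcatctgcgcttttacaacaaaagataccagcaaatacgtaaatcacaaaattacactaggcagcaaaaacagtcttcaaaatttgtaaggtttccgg
dachs, chr2L:8471847-8471947: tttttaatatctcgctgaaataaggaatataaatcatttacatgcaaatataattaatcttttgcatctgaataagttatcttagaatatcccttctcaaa
All 4 lay in introns, and their base composition was AT-rich, with 23.8% to 34.7% G and C, where the mean over all reproducible distal peaks was 42.2%. The sequence at dachs holds TAATCT, a variant of the core that is counted below. The first lay at slow and had a pooled signal of 146.031, the next at Dnaaf5, a gene for assembly of axonemal dynein, with 146.025. Both stand just under the limit of the IDR list.

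These peaks were chosen by their pooled signal and by their presence in both replicates, so the following values describe them. The IDR list held the 5844 pooled peaks of highest signal, and the reproducible distal peaks began at rank 5845. The 3 highest had signals of 146.031, 146.025 and 146.002, against 146.032, 146.038 and 146.047 for the lowest IDR peaks. Pooled signal in reproducible distal peaks ran between 34.7 and 146, with a median of 79.8, against a median of 45.5 in the distal peaks not in both replicates. The deposited -log10 q-value lay between 0.392 and 3.27, and 4262 peaks (59.3%) had a q of 0.05 or less. In replicate 2 the signal had a lowest value of 21.4, a median of 42.2 and a highest of 129. In replicate 3 these were 17.5, 35.8 and 110. Nearly all were thus weak in each library on its own. Only 296 ranked within the first 5844 of replicate 2 and 250 within those of replicate 3, while 6 did so in both and 6642 in neither.

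**Figure D1:**
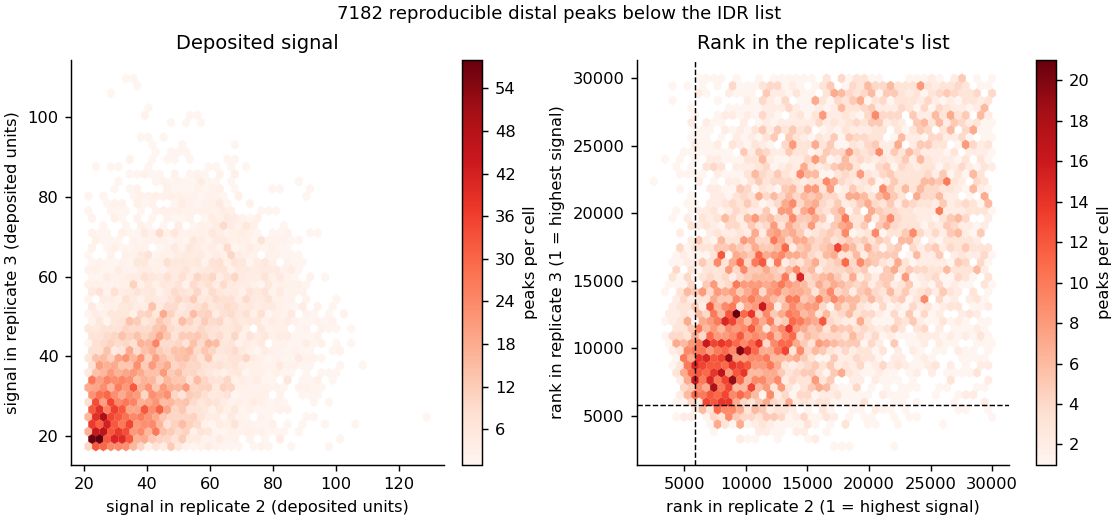
Deposited signal (left) and rank (right) of the 7182 reproducible distal peaks in replicate 2 (horizontal) and replicate 3 (vertical), with colour for the number of peaks per cell. Dashed lines mark rank 5844, the length of the IDR list. The medians are 42.2 and 35.8 signal units, and 6 peaks rank within 5844 in both replicates.

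The replicate signals were related loosely. Spearman's rho of the signal between replicates was 0.447 over the 7182 reproducible distal peaks, against 0.659 over 3629 distal IDR peaks found in both lists. Both are descriptions across peaks, which share libraries and 1 control, and the range of signal below the limit is narrower. By the rule, replicate summits lay within 100 bp of the pooled summit. Their median distance from it was 12 bp in replicate 2 and 22 bp in replicate 3, and 1067 peaks had both within 10 bp. In distal IDR peaks, which were not chosen on this distance, the medians were 11 bp and 16 bp. The peaks just inside the rule lay 501 bp from a start site or 1001 bp from an IDR summit, and those just outside lay at 500 and 1000 bp. The farthest replicate summit kept was at 100 bp and the nearest left out at 101 bp.

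TAATCC was more frequent at the summits of these weak peaks than in their flanks, and its share at the summits lay near that of all pooled peaks. TAATCC on either strand, within 50 bp of the summit, occurred in 461 of 7182 reproducible distal peaks (6.42%, 95% Wilson interval 5.87% to 7.01%), where all 30000 pooled peaks, which include them, gave 5.91%. Windows of the same length centred 500 bp to either side held it in 3.31% (475 of 14364, interval 3.03% to 3.61%), a log2 ratio of 0.96, beside 0.80 in all pooled peaks. The summit share was therefore above that of the flanks by more than the counting error. At the summits called in replicate 2 the share was 6.34%, and at those of replicate 3 it was 6.06%, a mean of 6.20% ± 0.197 (SD, n = 2). The log2 ratios to the flanks were 0.93 and 0.77. The core thus stood above the flanks at the summits of each replicate, but these values are not independent. The same peaks entered both, and the replicate summits lay within 100 bp of the pooled summit by the rule (medians 12 and 22 bp). The windows therefore share much of their sequence, and the SD describes the placing of summits alone. Of the windows with the core, 445 had 1 and 16 had 2. Intervals here and below cover counting error over peaks alone, and with 2 libraries of 1 group no test between groups was possible.

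**Figure D2:**
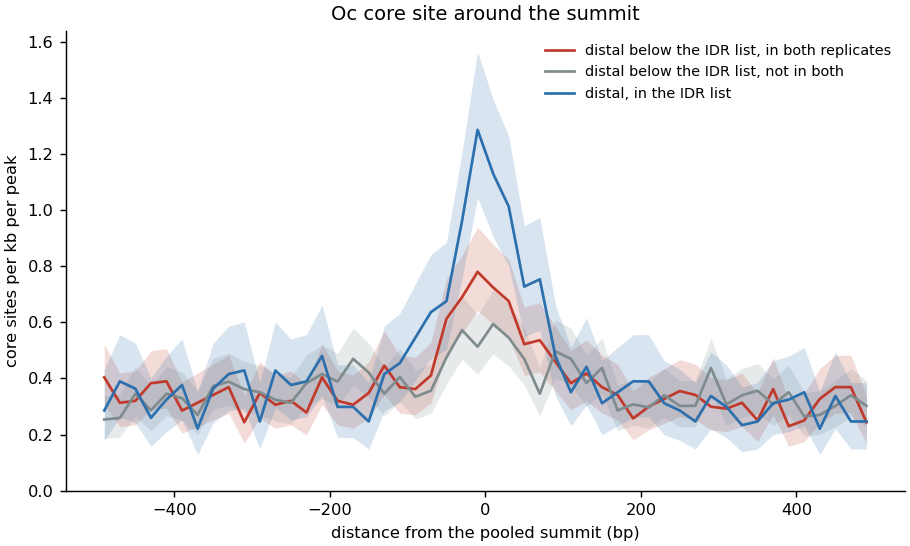
Core sites (TAATCC on either strand) per kb and peak in 20-bp bins against distance from the pooled summit, in bp, for reproducible distal peaks (red), distal peaks below the list not in both replicates (grey) and distal IDR peaks (blue), with 95% Poisson bands. Beside the summit the red line reaches 0.780 sites per kb and the blue line 1.29, and far from it all 3 lines lie near the same level.

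By the amount of core site the reproducible distal peaks fell between their neighbours. Distal peaks of the same kind that were not in both replicates had the core in 5.02% of 9262 windows (log2 ratio to flanks 0.69), and distal IDR peaks in 9.61% of 3851 (log2 ratio 1.57). The reproducible peaks exceeded those not in both replicates by 1.40 percentage points (95% Newcombe interval 0.684 to 2.13) and lay below the distal IDR peaks, with a difference of -3.19 points (-4.30 to -2.12). Promoter peaks below the list had 5.20%, and the difference of 1.22 points had an interval that reached 0 (-0.0406 to 2.33). Since reproducible peaks have the higher signal, the first difference was also taken within 11 bands of pooled signal 10 units wide. Averaged over them by the number of reproducible peaks it was 1.24 points (0.199 to 2.28), and the reproducible peaks were higher in 9 of 11 bands. In each of the 11 bands, however, the interval included 0. The bands of 50 to 60 and 60 to 70, with the most reproducible peaks (964 and 1041), went the other way (-0.215 and -0.515 points). The largest differences lay in the bands between 110 and 140, where the comparison held only 84, 58 and 44 peaks. The average therefore leans in part on small comparison sets. With summits of replicate 3 the difference was 0.699 points (-0.279 to 1.62), and in the stronger part of the peaks, at or above the median signal, it was 1.82 points (-0.170 to 3.44), so that in both cases the interval included 0.

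Across signal the core share was low at the bottom and nearly level above it. With the reproducible distal peaks cut into 4 equal parts by pooled signal, low to high, TAATCC occurred in 5.12%, 6.69%, 6.85% and 7.02% of windows. The intervals of the lowest part (4.195% to 6.24%) and of the highest (5.92% to 8.29%) overlapped. Across the limit of the IDR list the intervals also overlapped. The 500 reproducible distal peaks nearest to it held the core in 6.60% (4.74% to 9.12%), and the 500 distal IDR peaks just above it held it in 7.60% (5.59% to 10.3%). By agreement of the summits, the share was 6.37% (5.06% to 8.001%) where both replicate summits lay within 10 bp and 6.26% (5.37% to 7.28%) where the farther lay 51 to 100 bp away. The median signal of these groups was 83.0 and 75.9. The 290 peaks that ranked within the first 5844 of replicate 2 alone had the core in 6.55%, and the 244 that did so in replicate 3 alone in 6.15%.

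**Figure D3:**
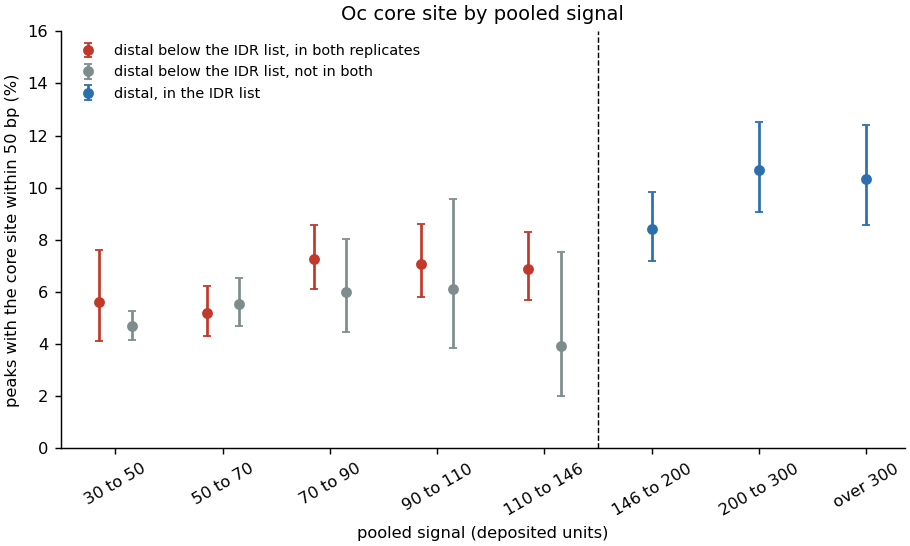
Share of peaks with the core site within 50 bp of the summit (%, points, with 95% Wilson intervals) in bands of pooled signal, for reproducible distal peaks (red), distal peaks below the list not in both replicates (grey) and distal IDR peaks (blue). The dashed line marks the limit of the IDR list. The red points lie between 5.19% and 7.26%, and the blue points between 8.41% and 10.7%.

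Among all 2080 distinct 6-mers, each counted with its reverse complement, TAATCC had the highest log2 ratio of summit windows to flanks in reproducible distal peaks and TAAGCC, a variant of the core, the next. TAAGCC occurred in 533 windows (7.42%, where all pooled peaks gave 6.55%) against 4.21% of flanks, a log2 ratio of 0.82. In the same peaks it was at 7.50% with the summits of replicate 2 and 7.35% with those of replicate 3 (mean 7.43% ± 0.108, SD, n = 2). This SD, too, describes the placing of summits alone. Reproducible peaks had more of it than distal peaks not in both replicates by 1.63 points (0.869 to 2.41) and than promoter peaks below the list by 2.73 points (1.495 to 3.82). They had less of it than distal IDR peaks, by -2.21 points (-3.35 to -1.12). The related TAATCT was at 5.61% (5.25% of all pooled peaks) against 4.41% of flanks. In rank the next 6-mers were AGAGGG, then AAGCCG, which overlaps TAAGCC by 5 bases, and then the E-box CACGTG, with log2 ratios of 0.73 each. CACGTG was in 131 windows (1.82%) against 1.1% of flanks, and its log2 ratio was 0.41 in distal peaks not in both replicates (rank 52) and 0.11 in distal IDR peaks (rank 602).

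Bases beside the core were compared between summits and flanks at 2 positions on each side of TAATCC and of TAAGCC, and in 5 of 32 comparisons the intervals did not overlap. G followed TAATCC at 23.3% of 477 sites at the summits (19.7% to 27.3%), against 14.99% of 487 sites in the flanks (12.1% to 18.4%). G followed TAAGCC at 29.0% of 565 sites at the summits (25.4% to 32.9%), against 18.1% of 624 in the flanks (15.3% to 21.3%). A followed TAATCC at 24.3%, against 32.9% in the flanks, and TAAGCC at 30.8%, against 42.8% in the flanks. T stood 2 bases before TAAGCC at 26.9%, against 36.1% in the flanks. These 5 were picked for their intervals, so they describe the sites. The sites read 5′ to 3′ in the direction of the core.

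Pairs of inverted sites, TAATC and GATTA with 1 base between them, the kind of palindrome to which paired-type homeodomains can bind as dimers, were rare. They occurred in 7 reproducible distal peaks (0.0975%, where all pooled peaks gave 0.0667%) and in 0 of 14364 flank windows, which allows up to 0.0267% by the Wilson bound. There were 3 in the distal peaks not in both replicates, 5 in the distal IDR peaks and 0 in the promoter peaks below the list. All 7 lay in introns. The 6 pairs on 2L, 3R and X are shown with 10 bases on each side, dm6 plus strand, the pair in capitals.
tnc, chr3R:24989389-24989419: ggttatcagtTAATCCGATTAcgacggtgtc
CG34303, chr3R:10155274-10155304: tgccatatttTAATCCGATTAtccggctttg
narya, chrX:19422612-19422642: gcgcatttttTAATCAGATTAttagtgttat
Sfp24Bc, chr2L:3677179-3677209: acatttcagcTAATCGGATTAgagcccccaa
sick, chr2L:19804589-19804619: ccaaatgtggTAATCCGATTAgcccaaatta
Dop2R, chrX:20022301-20022331: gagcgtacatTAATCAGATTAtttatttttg
The strongest, at tnc, had a pooled signal of 141, with 69.5 in replicate 2 and 66.1 in replicate 3, and the weakest, at Dop2R, a dopamine receptor gene, had 51.3, with 23.3 in replicate 2 and 35.5 in replicate 3. The peak of narya lay 52444 bp from its start site. The pairs at tnc, CG34303 and sick hold a core in the strict sense, and the one at Sfp24Bc holds it on the minus strand.

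Elements of promoters were scarce in reproducible distal peaks. The rule kept these peaks away from start sites, while promoter peaks lay at them. A contrast of the 2 sets in such elements is therefore built into the choice and shows nothing special to reproducible peaks. TATCGATA, the site of the factor DREF, was in 17 windows (0.237%, where all pooled peaks gave 0.533%), against 2.09% in promoter peaks below the list, a difference of -1.85 points (-2.64 to -1.27). GGTCACAC, known as Motif 1, was in 18 windows (0.251%; all pooled peaks 0.493%), against 2.60% at promoters, a difference of -2.35 points (-3.21 to -1.69). Though scarce, it was in only 14 of 14364 flank windows, a log2 ratio of 1.36, and the intervals of summits and flanks overlapped. For TATCGATA the log2 ratio was 0.33. The other distal sets held these elements at similar shares. TATCGATA was in 0.182% of distal IDR peaks and in 0.162% of distal peaks not in both replicates. For GGTCACAC these shares were 0.286% and 0.162%. For both elements, reproducible distal peaks differed from neither set beyond counting error. GAGAGAG, the site of GAGA factor, was in 167 windows (2.33%; all pooled peaks 2.62%) against 1.23% of the flanks, a log2 ratio of 0.92. In distal IDR peaks it was at 2.23% against 2.10% of flanks, so that the summit shares differed by 0.0921 points (-0.518 to 0.656). AACCGGTT, a site of Grainyhead, was in 27 windows (0.376%; all pooled peaks 0.27%) against 0.160% of flanks, a log2 ratio of 1.23. On these small counts, the ratios of GGTCACAC and AACCGGTT lay above the 0.96 of TAATCC. Homeodomain sites of the other kind were below the flanks, with TAATTA in 6.81% (all pooled peaks 6.44%) against 8.05% and TAATTG in 9.06% (8.65%) against 11.4%. The remaining 8 of 18 motifs searched had log2 ratios between -0.16 and 0.38. GC content moved with the summits, at 42.2% in the summit windows of reproducible distal peaks against 40.8% in their flanks, and at 39.8% against 40.4% in distal IDR peaks. Its part in the motif shares was not tested.

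Reproducible distal peaks lay mainly in introns. Introns held 4530 of them (63.1%, 62.0% to 64.2%), where introns made up 44.2% of eligible sequence, the sequence without gaps over 500 bp from start sites and over 1000 bp from IDR summits. Intergenic sequence held 2314 (32.2%), near its share of 32.8%. Coding exons held 72 (1.00%, 0.797% to 1.26%), against 15.4% of eligible sequence, which is 0.0652 times that share. The 3′ UTRs held 98 (1.36%) against 5.92%. Coding exons were among the classes in which the distal sets differed, with 2.32% of the distal peaks not in both replicates, a difference of -1.32 points (-1.71 to -0.933), and 0.312% of distal IDR peaks, a difference of 0.691 points (0.381 to 0.981). For 3′ UTRs these differences were -0.471 points (-0.853 to -0.0812) and 0.508 points (0.0861 to 0.892). For intergenic sequence they were -1.96 points (-3.41 to -0.511) and 0.747 points (-1.08 to 2.56). In introns the reproducible peaks exceeded those not in both by 3.79 points (2.29 to 5.29) and did not differ from distal IDR peaks beyond counting error (-1.30 points, -3.17 to 0.588). The core occurred in 5.98% of the intronic peaks (5.33% to 6.71%) and in 7.001% of the intergenic ones (6.03% to 8.11%), and the intervals overlapped.

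The arms held these peaks unevenly. Per megabase of eligible sequence there were 73.6 reproducible distal peaks on 2L, 73.5 on 3L, 66.8 on 3R, 61.7 on X and 59.7 on 2R, with Poisson intervals of 69.8 to 77.6 on 2L and 58.2 to 65.3 on X. The small chromosome 4, which is largely heterochromatic, held 10, or 8.58 per Mb (4.11 to 15.8), 5 of them at ey. The Y held 0. Coverage and mappability of these arms were not analysed here.

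The strongest regularity in position was closeness to IDR summits. Between 1 and 2 kb from the nearest IDR summit there were 218 reproducible distal peaks per eligible Mb (207 to 230), then 155 at 2 to 5 kb, 92.6 at 5 to 10 kb, 55.6 at 10 to 20 kb, 32.4 at 20 to 50 kb and 7.64 beyond 50 kb (6.69 to 8.69). Distal peaks not in both replicates thinned out likewise, with 251 per Mb at 1 to 2 kb and 15.3 beyond 50 kb. The share of distal peaks below the list that recurred in both replicates was 46.6% at 1 to 2 kb (44.8% to 48.3%), 41.9% at 10 to 20 kb and 33.3% beyond 50 kb (29.9% to 36.9%). The median pooled signal of the reproducible peaks was 82.0 in the nearest band and 67.4 in the farthest. The core did not follow this gradient, at 6.35% of reproducible peaks in the nearest band (5.22% to 7.71%) and 7.30% in the farthest (4.60% to 11.4%). By distance to start sites the density was 65.2 per Mb at 0.5 to 1 kb, 81.2 at 5 to 10 kb and 21.5 beyond 20 kb. Of the reproducible distal peaks, 3478 (48.4%) had another within 2000 bp. The number that the density near IDR summits alone would give was not computed. When neighbours at most 2000 bp apart were joined, 3704 peaks stood alone and 2 groups held 8 peaks each. These 2 lay nearest to CG2841 and to boi, a receptor gene of Hedgehog signalling, both on X.

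**Figure D4:**
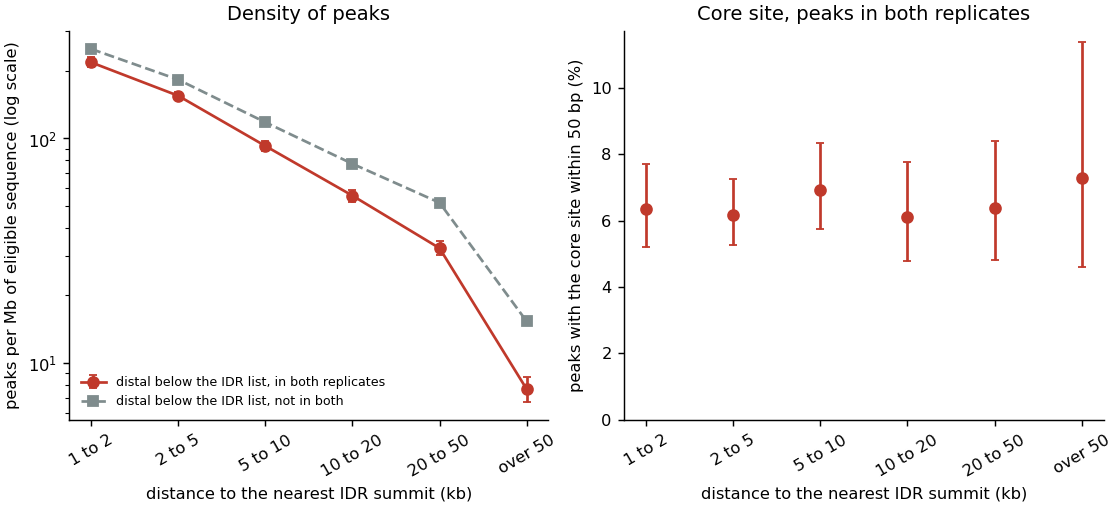
Left, reproducible distal peaks (red, with 95% Poisson intervals) and distal peaks below the list not in both replicates (grey) per Mb of eligible sequence, on a log scale, by distance to the nearest IDR summit in kb. Right, share of reproducible distal peaks with the core site (%, with 95% Wilson intervals) by the same distance. Density in red is 218 per Mb in the nearest band and 7.64 in the farthest, while the core share lies between 6.11% and 7.30%.

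Peaks were counted at the protein-coding gene whose start site was nearest. Of 13791 genes, 2623 (19%) had at least 1 reproducible distal peak. Of these, 1463 also had an IDR summit and 1160 had none. Genes without an IDR summit held 2044 of the peaks at 26.4 per eligible Mb, against 152 per Mb at genes with one. Relative to the number at the genome-wide density by distance to IDR summits, these were 0.673 times (0.644 to 0.703) and 1.24 times (1.21 to 1.27). The core occurred in 7.14% of the peaks at genes without an IDR summit (6.10% to 8.34%) and in 6.13% at genes with one (5.51% to 6.82%), and the intervals overlapped. A single peak was found at 1140 genes, and 75 genes had 10 or more. Genes with many peaks have long territories, with a median eligible length of 49.0 kb for those 75 against 2.96 kb for all genes, and assignment by nearness does not show which gene an enhancer serves.

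The gene with the most reproducible distal peaks was hth, which encodes the TALE homeodomain cofactor of Hox proteins and had 42. Their pooled signals had a lowest value of 37.8, a median of 88.0 and a highest of 144. Introns held 33 of the 42, and the farthest lay 88.9 kb from the nearest start site of hth, which also had 18 IDR summits. TAATCC was in 2 of the 42 and TAAGCC in 6. The Wnt receptor gene fz2 had 26, with signals of 51.1 to 141 and a median of 82.1, and 25 of them were intronic. Eip75B, an ecdysone-response nuclear receptor gene, and comm, whose product lets axons cross the midline, had 21 each, and 17 of those at comm were intergenic. heph, for an RNA-binding splicing regulator, and pum, for a translational repressor, had 19 each. The core was in 6 of 19 peaks at pum and in 2 of 19 at heph.

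Next in number came 5 genes with 18 each: kirre, an adhesion gene of muscle founder cells, CG43188, olf413, Tet and vvl. All 18 at vvl were intergenic, 4 with the core. sick had 17, and Cyp12e1, Antp and rdx had 16 each, as did pyd, which came next by highest signal. All 16 at Antp, the Hox gene, were intronic. The sets ranged widely in distance from IDR summits, with medians of 2.58 kb at hth and 30.01 kb at Tet. At the genome-wide density in each of the 6 bands of distance to IDR summits, the eligible sequence of hth would hold 14.5 peaks, so that 42 is 2.90 times that number (Poisson interval 2.09 to 3.92). For comm the ratio was 3.84, for Tet 3.40 and for Antp 1.33. These genes were chosen for their many peaks, so these ratios describe them.

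Among genes with no IDR summit at all, tei and Rbp6 had 11 reproducible distal peaks each and VGlut and vn 10 each. VGlut, the vesicular glutamate transporter gene of motor neurons, had its 10 within 10.6 kb of eligible sequence, 11.2 times the number at the genome-wide density by distance (5.39 to 20.7). The strongest lay 983 bp downstream of its start site in an intron, with a pooled signal of 132, 80.05 in replicate 2 and 43.3 in replicate 3. The next, 5104 bp downstream, had 115.3, with 57.7 in replicate 2 and 60.2 in replicate 3, and TAAGCC near its summit. None of the 10 had TAATCC. For vn, the neuregulin-like ligand of EGFR, the ratio was 6.20, and 1 of its 10 had the core. The choice of these 4 was made after their values were seen.

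Lists of genes by role differed in density. Of 20 head gap and anterior patterning genes 18 had a reproducible distal peak, where 19% of all genes did. The 20 genes held 65 peaks, or 197 per eligible Mb (152 to 252), against 64.5 over the genome. Of those 65, TAATCC was in 10 (15.4%, 8.58% to 26.1%) and TAAGCC in 5. D, a Sox gene, and kni, a gap gene, had 8 peaks each, ems and knrl 7 each, and Gsc, a paired-type homeobox gene of the foregut and brain, had 6. At Gsc 2 peaks held the core: 1 lay 2075 bp upstream in an intron with a pooled signal of 92.1, 41.8 in replicate 2 and 56.5 in replicate 3, and 1 lay 2764 bp upstream between genes with 67.0, 36.2 in replicate 2 and 32.7 in replicate 3. At tll, a gap gene of the terminal brain, the 1 peak lay 2225 bp upstream and held the core, with 68.8 pooled, 40.1 in replicate 2 and 25.2 in replicate 3. The peaks of slp1 and hkb, at pooled signals of 76.0 and 51.6, held it too. Genes of this list with reproducible distal peaks and no IDR summit were hb (2 peaks), gt (1) and hkb (1). No such peak was found at bcd or btd. slp2 and cnc had 5 peaks each, Rx had 3, hbn, Ptx1 and Kr had 2 each and croc had 1.

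The gene of the tagged factor itself, oc, had 3 reproducible distal peaks beside 28 IDR summits, which left 8.22 kb of its 39.1 kb territory eligible. The intronic one, 2843 bp downstream of the start site, had a pooled signal of 106, with 62.4 in replicate 2 and 58.5 in replicate 3. An upstream one had 112, with 75.4 in replicate 2 and 43.1 in replicate 3, and the other had 62.7, with 38.1 in replicate 2 and 31.5 in replicate 3. None held TAATCC or TAAGCC. The transgene carries a copy of oc, and how much of this locus it holds is not stated in the labels.

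Retinal determination genes had a peak at 14 of 15, 93 peaks in all and 226 per Mb (183 to 277), of which hth alone held 42. The ratio to the number at the genome-wide density by distance was 2.17 (1.75 to 2.66). Without hth the 14 genes held 51, a ratio of 1.79 (1.34 to 2.36). Lim1 had 11, the Pax6 gene ey 5 and its paralogue toy 1, both on chromosome 4, and eya, a transcription cofactor and phosphatase gene, and tsh 7 each. The strongest of ey, in an intron 1579 bp from the start site, had 110 pooled, 60.1 in replicate 2 and 40.3 in replicate 3. toe, a Pax-family paralogue of eyg, had 6 with no IDR summit, and Optix, a Six-family gene, had 4, of which the strongest held the core. That peak had 143 pooled, but 109 in replicate 2 and 38.7 in replicate 3. dan had 3, eyg and danr 2 each, and dac, ato and so 1 each, while Pph13 had 0. TAATCC was in 5 of the 93 and TAAGCC in 11. The photoreceptor and phototransduction genes had a peak at 4 of 21, at 40.7 per Mb (20.3 to 72.8), with a ratio of 0.685 (0.342 to 1.23), and both intervals include the value over all genes.

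CNS midline and axon guidance genes had a peak at 14 of 15 and 247 per Mb (198 to 306), led by comm and by robo2, a receptor gene for Slit, with 10. Trachea and salivary gland genes had one at 10 of 14 and 249 per Mb (201 to 306), but 184 per Mb without hth. These lists also hold many IDR summits, 33 and 54, and the density was higher near such summits. At the genome-wide density by distance, the ratio was 2.64 for the midline list (2.11 to 3.26), 1.98 for trachea and salivary gland (1.60 to 2.44, and 1.56 without hth) and 1.62 for head gap and anterior patterning (1.25 to 2.07). Hox genes and cofactors had 1.65 (1.33 to 2.03), but 1.19 without hth (0.875 to 1.58).

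Signalling genes had a peak at 22 of 37, with a ratio of 1.77 (1.48 to 2.10), among them fz2, sty, an inhibitor of EGFR signalling, with 13, vn with 10 and pnt with 9. Notch pathway genes had one at 8 of 19 (ratio 2.12, 1.504 to 2.89), led by mam, a coactivator, with 12, and Delta, the gene of a Notch ligand, with 8, and N itself had 4 intronic peaks and no IDR summit. Its strongest had 138 pooled, 72.6 in replicate 2 and 68.1 in replicate 3, with TAAGCC. Neuronal effector genes had a peak at 7 of 15, at 99.99 per Mb and a ratio of 1.92 (1.24 to 2.84), carried by VGlut with 10 of the 25, then by the GABA-synthesis gene Gad1 and the synaptic fusion gene Syx1A with 4 each and the acetylcholine-synthesis gene ChAT with 3. Hemocyte and fat body genes had a ratio of 1.61 (1.09 to 2.30) and mesoderm and muscle genes of 1.37 (1.01 to 1.81). For 5 further developmental lists the interval included 1: glia (1.51), neuroblast and temporal series (1.29), pair-rule and segment polarity (1.28, 0.998 to 1.61), epidermis and cuticle (1.24) and gut (1.21). The proneural and Snail family (1.36) and germline (0.925) lists, with 12 and 7 peaks, were also of this kind.

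Counts of core sites per list were small. For 19 of 21 lists the interval of the TAATCC share included the 6.42% over all reproducible distal peaks, and these lists included photoreceptor (2 of 11), gut (4 of 29), trachea and salivary gland (9 of 91), neuroblast and temporal (5 of 43, 3 of them at vnd), signalling (4 of 134) and Notch pathway genes (0 of 39, which allows up to 8.97% by the Wilson bound). The interval lay above it for head gap and anterior patterning genes, given above, and below it for pair-rule and segment polarity genes, where 0 of 71 held TAATCC, which allows up to 5.13%, and 11 held TAAGCC. With 21 lists set side by side, these 2 are a description.

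Among the lists, density was lowest at cytosolic ribosomal protein genes and next lowest at proteasome subunit genes. Cytosolic ribosomal protein genes had a reproducible distal peak at 4 of 91, 18.4 per Mb (7.94 to 36.2), or 0.438 times the number at the genome-wide density by distance (0.189 to 0.862). Proteasome subunit genes had one at 4 of 48, at 31.4 per Mb (10.2 to 73.3), an interval that includes the 64.5 over the genome. Their ratio was 0.475 (0.154 to 1.11), and its interval includes 1. Odorant and gustatory receptor genes had one at 12 of 118, at 42.1 per Mb (29.0 to 59.2), with a ratio of 0.796 (0.548 to 1.12) that includes 1 in its interval, and Or67d alone held 12 of their 33. Intervals treat peaks as independent, while neighbouring peaks share genes and some lists share members, so that they are too narrow.

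**Figure D5:**
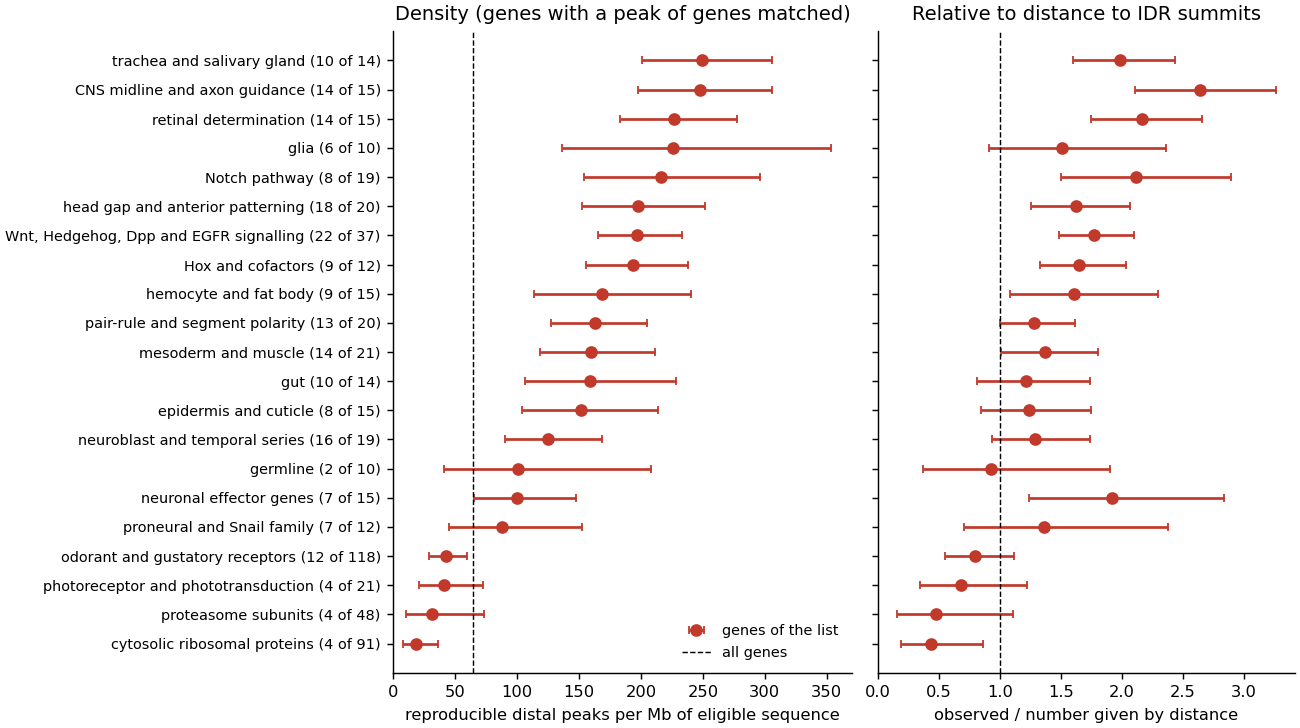
Reproducible distal peaks per Mb of eligible sequence (left) and the observed number divided by that given by the genome-wide density in each band of distance to IDR summits (right) for 21 gene lists, with 95% Poisson intervals. Numbers in brackets are genes with a peak out of genes matched, and dashed lines mark the value over all genes. The lists run between 18.4 per Mb for cytosolic ribosomal proteins and 249 per Mb for trachea and salivary gland.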

How the data were processed

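ChIP-seq peak lists of 2 libraries were used, 1 list per replicate, 1 from the pooled alignments and the IDR list, on dm6 per the labels. The authors deposited them as intervals with a signal value on a scale not stated, a -log10 q-value and, as another column, a summit offset in bases from the start of the interval. Deposited signal ranked and filtered peaks. No source used here gives the caller, IDR threshold, aligner or read numbers, so depth is unknown.

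Tools were Python 3.11.15, pandas 2.3.3, numpy 2.4.6, matplotlib 3.10.9 and scipy 1.17.1, with the dm6 sequence (RefSeq assembly release 6) and Ensembl 115 genes (BDGP 6.54). Start sites were those of all annotated transcripts other than transposon entries. Where annotations overlapped, a UTR came before a coding exon, then any other exon, then an intron. These classes cover all annotated genes, so an intron can belong to a gene other than the nearest one. Shares carry 95% Wilson intervals, differences Newcombe intervals and densities exact Poisson intervals, checked on simulated data. Of 280 listed symbols 10 were matched under the current symbol of the annotation, after values were seen, and 2 had no territory of their own and were not analysed here. The RpL and RpS, proteasome and Or and Gr lists were taken by symbol. Ratios to the density by distance to IDR summits were added after seeing the data.

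Named genes were oc, genes of the 10 peaks of highest signal, the 15 genes with most peaks, all head gap and retinal genes and up to 4 of each other list. Outside this choice, N, pyd, tei and Rbp6 were named, with the genes of the sequences shown and of the largest groups of neighbouring peaks. The members, lists and tests were chosen with earlier results of these data known.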

Additional observations from a re-analysis of the deposited data

How the results depend on the processing

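No paired analysis was possible because both libraries belong to 1 group. The 6 main results were computed again under 19 other settings, which gave 92 values, and 79 of them kept their direction and stayed within the interval of the main value or within 1.5 times the main count. The number of peaks was 4706 with replicate summits within 50 bp and 3591 at or above the median signal, which the setting fixes. Without 1 replicate as a condition it was 10467 to 11488. The share in introns was 64.5% over 1000 bp from start sites, 61.7% with start sites of protein-coding genes, 64.7% at or above the median signal and 61.3% to 62.2% without 1 replicate. TAATCC was in 3.29% of windows within 25 bp and 10.6% within 100 bp, the wider window holding more sequence, with a log2 ratio of 0.68 within 100 bp. With summits of replicate 3 the log2 ratio was 0.77. The difference in TAATCC share to distal peaks not in both replicates kept its sign under each of these settings, but its interval included 0 with summits of replicate 3 (0.699 points) and at or above the median signal (1.82 points). The cause was not tested. Settings added after seeing the data (transposon entries or RefSeq start sites counted, 1 peak kept per 400 bp, bands of signal) changed none of the 6 results beyond these limits. The RefSeq start sites removed no peak, so the values of that setting, counted among the 79, only repeat the main ones. Depth per library is unknown, so whether a peak missing in 1 replicate was missed for want of reads cannot be told.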
